A study of Mus musculus with 2 samples.

Results

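Lung pericytes, the mural cells that wrap the capillaries of the alveolar wall, were examined in 2 single-cell libraries made from mouse lungs that carried both transplanted and host cells. A cell barcode counted as a pericyte when at least 3 of the 5 genes Cox4i2, Higd1b, Postn, Ndufa4l2 and Trpc6 had a UMI (unique molecular identifier, a counted transcript). It also had to hold at most 3 UMIs of Plvap and at most 2 of Ednrb, which mark capillary endothelium, and to show fewer than 3 of the fibroblast genes Slc7a10, Col13a1, Tcf21, Ces1d and Itga8. This rule found 613 pericytes among the 8297 cells that passed the filters. Of these, 61 were among 4945 donor cells, a share of 1.23% (exact 95% binomial interval 0.945% to 1.58%). The other 552 were among 3352 recipient cells, a share of 16.5% (15.2% to 17.8%). The sort and the dissociation set what entered each library, so the shares say nothing of how frequent pericytes were in the tissue.

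The donor cells were td-tomato fluorescent lung cells, given to C57Bl mice as a TdTom single cell suspension 6 months earlier. The recipient cells were the td-tomato-negative C57BL cells of the same lungs. Both came from 3 chimeric mice pooled before sorting, were live and CD45- (no leukocyte surface CD45), and gave 1 droplet library each. The labels used here do not give the promoter of the reporter, the donor strain or how the hosts were prepared, and cells were not assigned to single mice. Each group is thus 1 library, so no test between donor and recipient pericytes was possible. Every interval below covers counting error at 95% and not the spread between mice.

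Pericytes sit within the capillary basement membrane, receive platelet-derived growth factor B from the endothelium through the receptor encoded by Pdgfrb, and are kept in place by Notch signals through Notch3. They answer nitric oxide through soluble guanylate cyclase, which makes cyclic GMP and relaxes mural cells. In the mouse lung they are known for high expression of Cox4i2, Higd1b and Ndufa4l2, which encode tissue-restricted relatives of respiratory chain proteins, whereas smooth muscle actin is largely a gene of smooth muscle and myofibroblasts.

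The donor pericytes held 322230 UMIs in all and a median of 5162 UMIs and 2275 genes per cell. The recipient pericytes held 3088219 UMIs and medians of 5111.5 UMIs and 2257 genes. Median mitochondrial shares were 3.98% in donor and 3.50% in recipient pericytes. The libraries had 816 cell barcodes in common, and a barcode found in both was counted only in the library where it had more UMIs. None of the donor pericytes but 60 of the recipient pericytes had such a barcode, with a median of 598 UMIs in the donor copies and 9271.5 in the recipient copies. Levels are given as CPM, the UMIs of a gene over all UMIs summed in the cells of a group, on the usual counts-per-million scale. A gene was compared when it had at least 20 UMIs in both groups together. It is called higher or lower here when it differed at least 2-fold and the exact interval of the ratio lay beyond 1.5-fold. A gene with 0 UMIs in the 61 donor pericytes could still be at up to 9.31 CPM by 3 counts.

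The genes of the rule were close to saturated. All 5 had a UMI in 49 of the 61 donor and 460 of the 552 recipient pericytes, and just 1 donor and 12 recipient pericytes entered with 3. Cox4i2, an isoform of a cytochrome c oxidase subunit, stood at 4298 CPM in donor and 4331 CPM in recipient pericytes and was seen in 60 and 551 cells. Postn, which encodes the matricellular protein periostin, stood at 2598 and 2641 CPM. Higd1b stood at 1713 CPM in donor and 1768 CPM in recipient pericytes. Trpc6, a cation channel gene, was the lowest of the rule genes at 506 CPM in donor and 469 CPM in recipient pericytes. These values chose the cells and are a description. At the edge of the rule, the 1 donor cell with 3 of the genes had 1494 UMIs, 669 CPM of Pdgfrb (1 UMI) and 0 CPM of Gucy1a1. The 12 recipient cells with 3 genes held 486 CPM of Pdgfrb and 644 CPM of Gucy1a1. Cells just outside it, with 2 genes, held 240 CPM of Pdgfrb and 288 CPM of Gucy1a1 in the donor library (7 cells), and 122 and 64.0 CPM in the recipient library (26 cells). The exclusion genes removed 47 of 108 donor cells and 76 of 628 recipient cells that had 3 of the genes.

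Several genes that the rule did not use were also higher in pericytes than in alveolar fibroblasts and endothelium. Pdgfrb stood at 1949 CPM in donor and 1957 CPM in recipient pericytes, against 29.6 CPM in recipient alveolar fibroblasts. It stood at 0.751 CPM in donor and 7.26 CPM in recipient endothelial cells. After every cell was thinned to 2000 UMIs, Pdgfrb was seen in 87.5% of donor and 95.2% of recipient pericytes, against 0.176% of donor and 1.16% of recipient endothelial cells, whose median depths were 6203 and 6413 UMIs. Pericytes of both libraries thus held the receptor at a level that the endothelium of the same library did not approach. Of 18 pericyte genes outside the rule, 17 could be compared with recipient alveolar fibroblasts, and 16 were called higher in recipient pericytes and 0 lower. Over all genes 13.1% were called higher and 12.1% lower in that comparison, and the list's median log2 ratio was 5.39 beside 0.12 for all genes. Kcnk3, a potassium channel gene linked to pulmonary vessels, stood at 881 CPM in donor and 925 CPM in recipient pericytes. Notch3 stood at 664 and 759.7 CPM, and Mcam, which encodes the adhesion protein CD146, at 819 and 907 CPM. The 5 recipient smooth muscle cells, where 1 UMI equals 34.3 CPM, held 22 UMIs of Notch3, 20 of Kcnk3 and 13 of Pdgfrb. Notch3 and Kcnk3 were thus not confined to pericytes. Against the 149 recipient myofibroblasts, where 13.5% of all genes were called higher and 9.20% lower, Pdgfrb was 19.3-fold (15.8 to 23.8) and Gucy1a1 42.4-fold (34.5 to 52.7) higher in recipient pericytes. Cspg4, which encodes the pericyte surface proteoglycan NG2, stood at 202 CPM in donor and 244 CPM in recipient pericytes.

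Several markers used for pericytes of other organs were sparse. Rgs5, a regulator of G protein signalling, stood at 34.1 CPM in donor and 22.0 CPM in recipient pericytes and had a UMI in 5 and 16 cells. The subunits of the vascular ATP-sensitive potassium channel, Abcc9 and Kcnj8, stood at 12.4 CPM each in donor pericytes and at 22.0 and 19.8 CPM in recipient pericytes. Anpep had 0 UMIs in donor pericytes and 2.59 CPM in recipient pericytes. Lamc3, a laminin chain gene that is also among the pericyte genes outside the rule, was sparse too. It had a UMI in 4 donor and 48 recipient pericytes. With cells thinned to 2000 UMIs it was seen in 4.79% of recipient pericytes and 4.99% of recipient alveolar fibroblasts. Lamc3 was not called between those classes. Of the pericyte genes outside the rule, Pdgfrb, Notch3 and Kcnk3 were thus abundant where Rgs5, Lamc3 and the channel pair were sparse.

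Between cell types, recipient pericytes were set against recipient alveolar fibroblasts (649 cells), endothelial cells (1225 cells) and smooth muscle cells (5 cells), each defined by 3 of 5 marker genes. Against the smooth muscle cells 155 of 9822 genes were called higher (1.58%) and 281 lower (2.86%). Of 9815 genes compared with every class, 101 (1.03%) were called higher in pericytes than in all 3. The 5 genes of the rule are among the 101, and Cox4i2, Higd1b and Postn among the 25 leading genes, so these counts are a description of cells that they helped to choose. Pericytes were also kept out of the other classes, among them 7 recipient pericytes with 3 or more smooth muscle class genes. Low levels of the rule genes in those classes were thus partly set by the definitions. The smooth muscle class was so small that 1 UMI in it equalled 34.3 CPM, and without it 835 genes met the rule, a count chosen after the data had been seen. In the donor library, 99 of the 101 genes were also called higher in pericytes than in endothelial cells, the one donor class large enough to compare, where 7.54% of all genes were. Between donor and recipient pericytes, 2 of the 101 were called, both lower in donor pericytes, beside 1.61% of all genes called in either direction.

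The 25 genes with the largest fold over the highest class were led by Spp1, which encodes the secreted phosphoprotein osteopontin (chromosome 5, 104435118 to 104441050 on the plus strand, GRCm38). It stood at 20066 CPM in donor and 21335 CPM in recipient pericytes. In recipient alveolar fibroblasts it stood at 54.4 CPM, a ratio of 392 (345 to 448), and in recipient endothelium at 63.5 CPM, a ratio of 336 (309 to 367). The highest class was the 5 recipient smooth muscle cells, at 103 CPM from 3 UMIs, a ratio of 207 (70.9 to 1005). Fst, which encodes the activin-binding protein follistatin, stood at 1331 CPM in donor and 1342 CPM in recipient pericytes and at 1.85 CPM in recipient alveolar fibroblasts. Pdzd2, a gene for a scaffold protein with PDZ domains, stood at 4615 CPM in donor and 5091 CPM in recipient pericytes. Lipg, the gene of endothelial lipase, stood at 1068 and 1178 CPM in pericytes but at 0.420 CPM in donor and 4.22 CPM in recipient endothelium. Col8a1, a short-chain collagen gene, stood at 798 CPM in donor and 807 CPM in recipient pericytes, against 1.39 CPM in recipient alveolar fibroblasts. The set also held Vtn, which encodes vitronectin (633 CPM in donor and 679 CPM in recipient pericytes), and Cdkn1c, an imprinted cell cycle inhibitor gene (872 and 935 CPM). Ltbp2, which encodes a microfibril-binding protein, stood at 698 CPM in donor and 655 CPM in recipient pericytes. Crim1, which encodes a transmembrane protein that binds bone morphogenetic proteins, stood at 1698 and 1924 CPM, and Ifitm1, an interferon-induced transmembrane gene, at 1601 and 1676 CPM. Nkain4 stood at 735 CPM in donor and 818 CPM in recipient pericytes, and Fam162b at 735 and 815 CPM.

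Not all of these genes were confined to pericytes once the other classes were read. Cystm1, Hbegf and Rgcc stood at 398, 588 and 1130.1 CPM in recipient pericytes, and at 1019, 433 and 841 CPM in recipient alveolar type 1 (AT1) epithelial cells. Ager, which encodes the receptor for advanced glycation end products and is an AT1 gene, stood at 15.5 CPM in donor and 780.4 CPM in recipient pericytes, against 17554 CPM in recipient AT1 cells. It had a UMI in 158 of 552 recipient pericytes, and 10 of those cells held 92.2% of its UMIs. Its place in the set ended when barcodes in both libraries were left out, where its log2 ratio over the highest class was -0.31, and also without cells that met another class, where it was -0.61. Between donor and recipient pericytes the interval of the ratio included equality for 19 of the 25 genes. Without Ager, the ratios of donor over recipient ran from 0.795 for Cystm1 to 1.07 for Ltbp2.

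**Figure D1:**
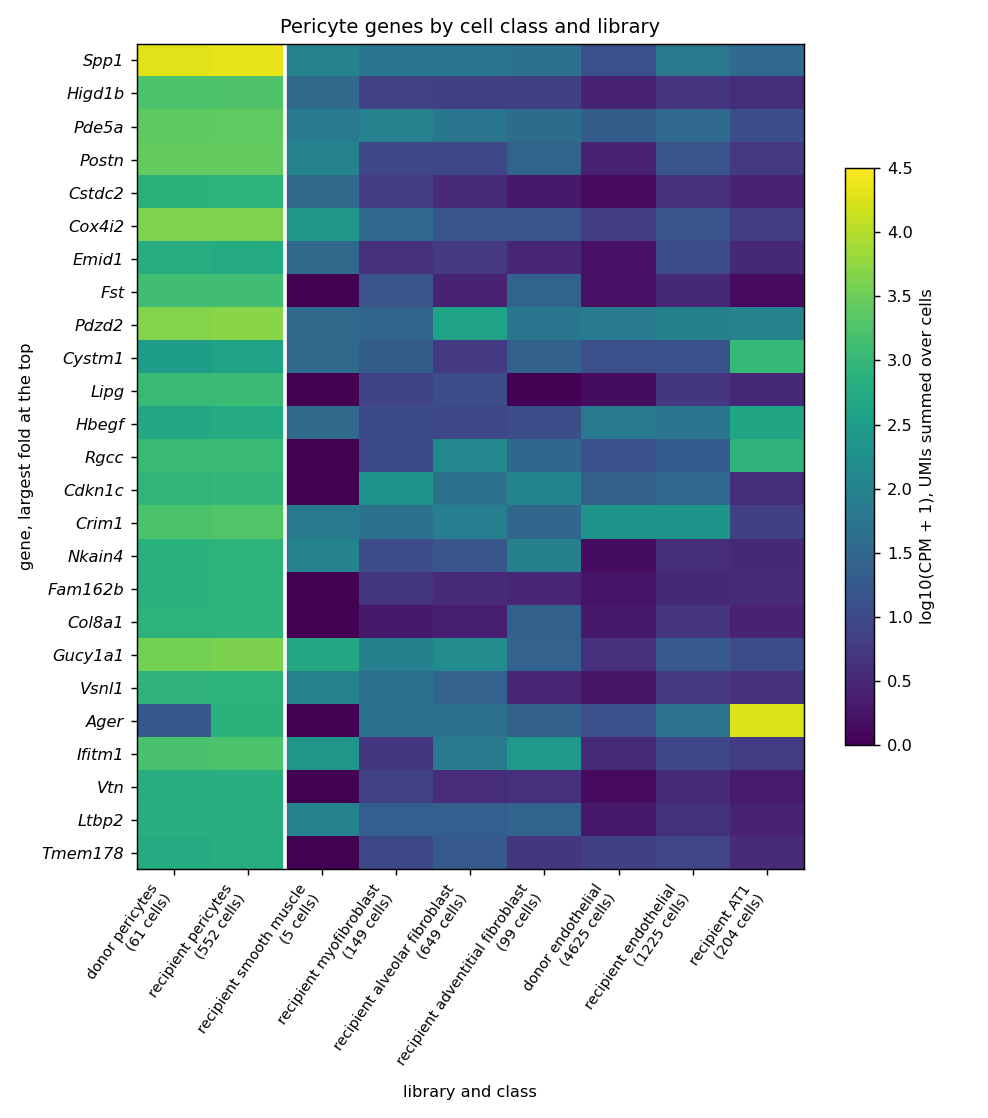
Levels of the 25 genes with the largest fold in recipient pericytes (rows), as log10(CPM + 1), in donor and recipient pericytes and in other classes of each library (columns). The donor and recipient pericyte columns are close for every gene except Ager (15.5 and 780.4 CPM), and Spp1 is the brightest row at 20066 and 21335 CPM.

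The nitric oxide and cyclic GMP pathway was present from receptor to breakdown. Gucy1a1 and Gucy1b1, the subunit genes of soluble guanylate cyclase, stood at 3659 and 3026 CPM in donor pericytes and at 4032 and 2992 CPM in recipient pericytes. Recipient alveolar fibroblasts held 147 and 71.6 CPM, and recipient endothelium 18.3 and 20.1 CPM. In pericytes both subunit genes were thus far above both classes. Pde5a, which encodes the phosphodiesterase that hydrolyses cyclic GMP, stood at 2414 CPM in donor and 2531 CPM in recipient pericytes and was 44.4-fold (39.1 to 50.6) over recipient alveolar fibroblasts. Prkg1, the cyclic GMP-dependent kinase gene, stood at 199 CPM in donor and 275 CPM in recipient pericytes. Of the pathway's 14 genes, 12 could be compared with recipient alveolar fibroblasts. Beside 13.1% of all genes higher and 12.1% lower, 8 of the 12 were called higher and 2 lower in recipient pericytes. Those lower were Npr2, a natriuretic peptide receptor gene, and Pde9a. Npr2 had 0 UMIs in donor pericytes and 19.1 CPM in recipient pericytes, at least 2.05-fold lower in donor at the floor of 3 counts. It was the 1 gene of 10 compared between the libraries that was called, beside 1.61% of all genes.

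Gucy1a1 and Gucy1b1 lie next to each other on the minus strand of chromosome 3, at 82092427 to 82145789 and at 82032006 to 82074689 (GRCm38). Their promoters are shown because these neighbours were high together in the pericytes of both libraries. Each window runs from 250 bases before to 50 bases after a RefSeq transcript start in GRCm38.p6, is read 5′ to 3′ along the gene, and has TGGGAA or its reverse complement TTCCCA, the core bound by the Notch effector RBPJ, in capitals. The windows are chr3:82145601-82145900 and chr3:82145024-82145323 for 2 starts of Gucy1a1, and chr3:82074662-82074961 for Gucy1b1, all on the minus strand.
Gucy1a1 first start: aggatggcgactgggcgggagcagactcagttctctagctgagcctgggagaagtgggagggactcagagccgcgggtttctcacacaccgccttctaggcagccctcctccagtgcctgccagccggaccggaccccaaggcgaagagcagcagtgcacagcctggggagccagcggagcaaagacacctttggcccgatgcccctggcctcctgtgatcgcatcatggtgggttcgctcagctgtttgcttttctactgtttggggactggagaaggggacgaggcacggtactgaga
Gucy1a1 second start: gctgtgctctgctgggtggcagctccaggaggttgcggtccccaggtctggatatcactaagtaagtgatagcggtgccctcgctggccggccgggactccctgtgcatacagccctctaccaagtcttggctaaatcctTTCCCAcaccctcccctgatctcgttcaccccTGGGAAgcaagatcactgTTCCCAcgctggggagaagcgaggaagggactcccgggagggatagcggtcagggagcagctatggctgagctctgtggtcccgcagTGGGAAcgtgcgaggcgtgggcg
Gucy1b1: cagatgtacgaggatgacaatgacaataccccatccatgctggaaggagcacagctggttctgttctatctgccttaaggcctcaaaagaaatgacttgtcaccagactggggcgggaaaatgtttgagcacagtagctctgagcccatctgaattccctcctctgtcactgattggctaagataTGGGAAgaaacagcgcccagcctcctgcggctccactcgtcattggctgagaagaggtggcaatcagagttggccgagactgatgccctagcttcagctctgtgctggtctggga

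The second Gucy1a1 window held 4 matches, 2 on each strand, the Gucy1b1 window held 1 and the first Gucy1a1 window held 0. Among all 32851 promoters of the RefSeq table, 25.6% held TGGGAA on either strand. Of the 25 leading genes 17 had a promoter there, 22 windows in all, and 8 of the 17 had TGGGAA in at least 1 window: Ager, Emid1, Fam162b, Gucy1a1, Ifitm1, Pde5a, Vsnl1 and Vtn. The other motifs searched on both strands were ACGTG, the hypoxia factor core (1 gene, Gucy1a1, and 19.6% of all promoters), and TGTTTAC, a forkhead site (1 gene, Ifitm1, and 3.65%). GGTGTGA, a T-box site, and the palindromic EBF site were in 0 of the 17 genes and in 3.98% and 0.904% of all promoters. Genes with several windows have more chances of a match than single promoters, and a match is a run of letters and not a measured binding site.

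Among surface signals, pericytes held the receptor side of the platelet-derived growth factor axis and little of the ligand that endothelium makes. Pdgfb stood at 31.0 CPM in donor and 18.1 CPM in recipient pericytes, against 364 CPM in donor and 326 CPM in recipient endothelium. Pdgfa, a ligand gene of the receptor encoded by Pdgfra, stood at 515 CPM in donor and 574 CPM in recipient pericytes. Of 10 Notch genes compared with recipient alveolar fibroblasts, 8 were called higher in recipient pericytes and 0 lower. Over all genes, 13.1% were called higher and 12.1% lower. Against recipient endothelium, 5 of 13 Notch genes were called higher and 5 lower, with a median log2 ratio of -0.055. There 13.6% of all genes were called higher and 15.1% lower. Nrarp, a Notch target that feeds back on the receptor, stood at 258 CPM in donor and 286 CPM in recipient pericytes, against 1.16 CPM in recipient alveolar fibroblasts. Heyl, a transcriptional repressor gene downstream of Notch3, was 6.78-fold higher in recipient pericytes than in recipient alveolar fibroblasts. Angpt1, the ligand gene of the endothelial receptor Tek, stood at 403 CPM in donor and 473 CPM in recipient pericytes but also at 400 CPM in recipient alveolar fibroblasts, and was not called between those.

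Receptors for vasoactive signals divided by gene. Of 22 such receptor genes compared with recipient alveolar fibroblasts, 7 were called higher in recipient pericytes and 10 lower, with a list median log2 ratio of -0.43. Over all genes 13.1% were called higher and 12.1% lower, with a median of 0.12. Agtr1a, the angiotensin II type 1a receptor gene, stood at 289 CPM in donor and 285 CPM in recipient pericytes, against 1.39 CPM in recipient alveolar fibroblasts. F2r, the thrombin receptor gene, stood at 1241 and 1171 CPM, and S1pr3, a sphingosine 1-phosphate receptor gene, at 499.6 and 442 CPM. Ednra, the endothelin receptor A gene, stood at 357 CPM in donor and 403 CPM in recipient pericytes and was not called against the 530.1 CPM of recipient alveolar fibroblasts. On the low side, Adra1a, an adrenergic receptor gene, had 0 UMIs in donor pericytes and 0.971 CPM in recipient pericytes, against 155 CPM in recipient alveolar fibroblasts. Of 23 ion channel and junction genes compared in the same way, 14 were called higher and 3 lower, beside the same shares of all genes. Gjc1 and Gja4, which encode gap junction connexins, stood at 416 and 254 CPM in donor pericytes and at 391 and 219 CPM in recipient pericytes. Between donor and recipient pericytes 0 of 21 channel genes were called, near the 1.61% of all genes. Of 15 vasoactive receptor genes 1 was called higher, Calcrl, at 121 and 35.3 CPM. Calcrl is a gene of the endothelial class and stood at 2006 CPM in donor and 1930.1 CPM in recipient endothelium.

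Matrix genes of both basement membrane and fibrils were present in pericytes, and how they compared depended on the other class. Against recipient alveolar fibroblasts, 9 of 17 basement membrane genes were called higher in recipient pericytes and 2 lower, with a median log2 ratio of 1.77. Of 22 genes of fibrillar and matricellular matrix, 4 were called higher and 11 lower, with a median of -1.08. In this comparison 13.1% of all genes were called higher and 12.1% lower. Col4a1 and Col4a2, the chains of the common collagen IV network, stood at 1704 and 1393 CPM in donor pericytes and at 1779 and 1538 CPM in recipient pericytes. In recipient alveolar fibroblasts they stood at 212 and 158 CPM. Nid2, which encodes the linker protein nidogen 2, was 66.4-fold higher in recipient pericytes than in recipient alveolar fibroblasts. Col3a1 was 5.47-fold (5.01 to 5.98) lower in recipient pericytes than in recipient alveolar fibroblasts, and Eln, the elastin gene, was 10.4-fold (9.11 to 11.9) lower. Against recipient endothelium, 14 of 17 basement membrane genes were called higher in recipient pericytes and 2 lower (median log2 1.79), and 16 of the 22 fibrillar genes higher and 0 lower (median 3.46), where over all genes 13.6% were called higher and 15.1% lower. The difference between the lists was not tested.

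The collagen IV pair of the alveolar epithelium behaved apart. Col4a3 stood at 3.10 CPM in donor pericytes, with 1 UMI, and at 41.4 CPM in recipient pericytes, a ratio of recipient over donor of 13.4 (2.35 to 532). Col4a4 stood at 6.21 CPM in donor and 58.0 CPM in recipient pericytes. In recipient AT1 cells these genes stood at 821 and 1265 CPM, and the AT1 marker genes summed to 258 CPM in donor and 2240 CPM in recipient pericytes. The part of AT1 RNA in the values of recipient pericytes was not tested.

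In each of 3 pairs of respiratory chain relatives, pericytes held mostly the tissue-restricted gene. Of the UMIs of Cox4i2 and its common relative Cox4i1, Cox4i2 made up 88.8% (87.1% to 90.3%) in donor and 89.4% (88.9% to 89.9%) in recipient pericytes. The share was 1.02% in donor and 2.70% in recipient endothelial cells. Ndufa4l2 made up 96.9% of its pair with Ndufa4 in donor and 97.2% in recipient pericytes, and Higd1b 92.0% and 94.0% of its pair with Higd1a. The first gene of each pair was in the rule, and pericytes were kept out of the other classes. The shares are thus descriptions in every class, but the partner genes were not in the rule. Ndufa4, a cytochrome c oxidase subunit gene, stood at 52.8 CPM in donor and 48.6 CPM in recipient pericytes, against 536 CPM in donor and 535 CPM in recipient endothelium and 347 CPM in recipient alveolar fibroblasts. It was thus 7.14-fold (6.04 to 8.51) lower in recipient pericytes than in recipient alveolar fibroblasts. Cox4i1 did not follow it, at 543 CPM in donor and 515 CPM in recipient pericytes and 499 CPM in the endothelium of either library. Higd1a stood at 149 CPM in donor and 113 CPM in recipient pericytes, beside 107 CPM in recipient alveolar fibroblasts, and was not called. Cox7a1, whose product replaces Cox7a2 in muscle, had 0 UMIs in donor pericytes and made up 0.511% of its pair in recipient pericytes.

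**Figure D2:**
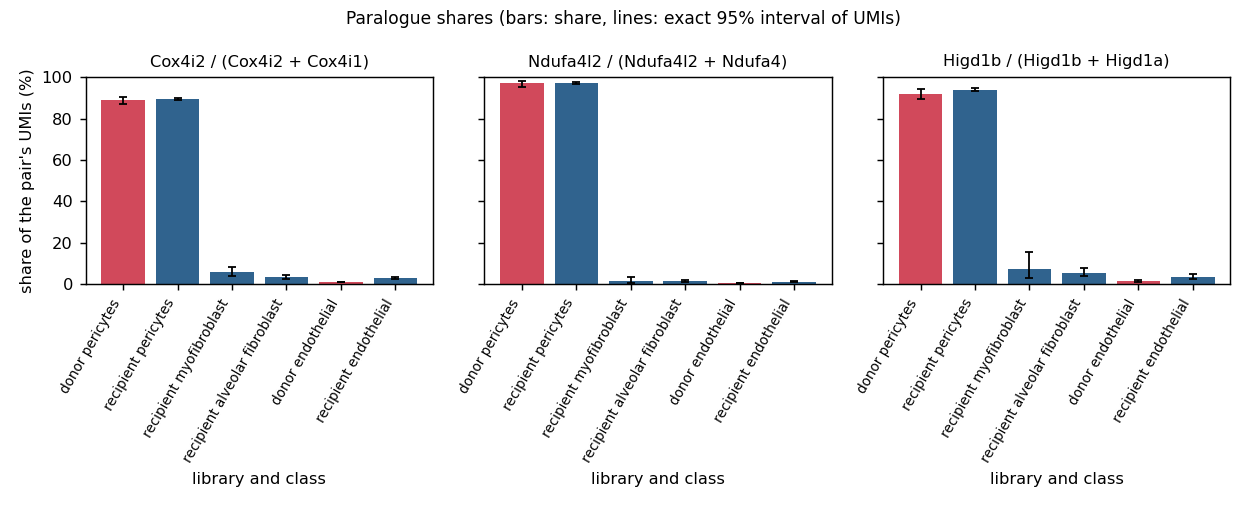
Share (%) of the first gene in the UMIs of each pair, for Cox4i2, Ndufa4l2 and Higd1b, in pericytes and other classes, with donor bars in red, recipient bars in blue and exact 95% intervals as lines. Shares are 88.8% or more in both pericyte groups and at most 7.41% in every other class drawn. Not drawn are recipient adventitial fibroblasts, at 13.6% for Ndufa4l2, and the 5 recipient smooth muscle cells, at 42.9% for Ndufa4l2 and 31.8% for Cox4i2.

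Genes of the hypoxia response did not stand out with them. Against recipient alveolar fibroblasts, 13.1% of all genes were called higher in recipient pericytes and 12.1% lower. Of the 16 hypoxia and glycolysis genes compared, 1 was called higher and 5 lower, with a median log2 ratio of -0.07. The higher one was Epas1, which encodes the oxygen-regulated factor HIF-2α, at 1002 CPM in donor and 822 CPM in recipient pericytes and 63.2 CPM in recipient alveolar fibroblasts. Adm, which encodes the vasodilator adrenomedullin, stood at 15.5 CPM in donor and 20.7 CPM in recipient pericytes and was 40.1-fold (31.3 to 52.2) lower in recipient pericytes than in recipient alveolar fibroblasts.

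Among regulators, 9 of 20 transcription factor genes were called higher in recipient pericytes than in recipient alveolar fibroblasts and 3 lower, beside 13.1% and 12.1% of all genes. Ebf1, an early B cell factor gene known in mural cells, stood at 1210.3 CPM in donor and 1356 CPM in recipient pericytes, against 6.02 CPM in recipient alveolar fibroblasts. Tbx2 and Tbx5, T-box genes of lung mesenchyme, stood at 1518 and 574 CPM in donor pericytes and at 1432 and 530.1 CPM in recipient pericytes. Foxs1, a forkhead gene, stood at 217 CPM in donor and 188 CPM in recipient pericytes. Tcf21, one of the exclusion genes and a fibroblast regulator, was itself present at 559 CPM in donor and 548 CPM in recipient pericytes. Of 17 factors compared between donor and recipient pericytes 0 were called, near the 1.61% of all genes.

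Of 25 secreted growth factor and cytokine genes, 8 were called higher and 10 lower in recipient pericytes than in recipient alveolar fibroblasts. Over all genes, 13.1% were called higher and 12.1% lower. Wnt4 and Wnt5a, secreted Wnt ligand genes, stood at 189 and 112 CPM in donor pericytes and at 215 and 117 CPM in recipient pericytes. In recipient alveolar fibroblasts they stood at 14.1 and 9.26 CPM. Vegfd, Fgf7 and Wnt2, ligand genes of alveolar fibroblasts, were 102-fold (68.2 to 162), 39.2-fold (23.6 to 70.3) and 78.2-fold (41.0 to 172) lower in recipient pericytes. Between the libraries 3 of 15 such genes were called, all lower in donor pericytes (Vegfa, Cxcl1 and Ccl11), beside 0.810% of all genes called lower. Ccl11 had 0 UMIs in donor and 76 in recipient pericytes, against 842 in the 99 recipient adventitial fibroblasts. Vegfa stood at 43.4 CPM in donor and 193 CPM in recipient pericytes, and at 3436 CPM in recipient AT1 cells.

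Pericytes were not uniform. With each cell thinned to 2000 UMIs, which left out 5 donor and 9 recipient pericytes, variance over mean was 1.03 for the median gene in donor and 1.05 in recipient pericytes. The genes of the rule had values of 0.811 to 2.94 in donor and 1.20 to 2.31 in recipient pericytes. Most of the 20 most variable genes among recipient pericytes fell into a few kinds. AT1 and type 2 genes (Ager, Hopx, Igfbp2, Sftpc and Sftpa1) and genes highest in adventitial fibroblasts or myofibroblasts (Mgp, Dcn, Gsn and Apoe) made up the first. In recipient pericytes 10 cells held 92.0% of the Sftpc, 95.6% of the Dcn and 72.8% of the Mgp UMIs. For Sftpc and Sftpa1 most lay in 1 cell, which held 819 of the 913 Sftpc UMIs. Likewise 373 of the 401 Sftpa1 UMIs lay in 1 cell. Immediate early and heat shock genes (Fos, Jun, Junb and Hspa1a) varied in both libraries, with 8.26 for Fos in donor and 9.78 in recipient pericytes. A further kind was contractile, Acta2 (21.2 in donor and 16.4 in recipient pericytes), Tagln and Eln, and Spp1 had 18.2 in both. Malat1, Igfbp7 and S100a6 were not placed in a kind. Malat1 was the most variable gene in donor pericytes, at 42.7, and had 45.4 in recipient pericytes. Over the 543 thinned recipient pericytes, which share 1 library, Acta2 and Tagln were correlated at r = 0.75, Fos and Jun at 0.70, and Spp1 and Acta2 at -0.56.

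Acta2, the smooth muscle actin gene (chromosome 19, 34241090 to 34255590 on the minus strand), had a UMI in 8 of 61 donor and 42 of 552 recipient pericytes. Cells with 10 or more of its UMIs, a limit chosen after the values were seen, numbered 4 in donor and 15 in recipient pericytes. The following levels in them are therefore a description. Spp1 stood at 650.4 CPM in the 4 donor and 2778 CPM in the 15 recipient cells, against 23081 and 22604 CPM in pericytes with no Acta2 UMI. Rgs5 stood at 285 CPM in the donor and 607 CPM in the recipient cells, against 3.66 and 1.06 CPM in pericytes without Acta2. Of the 68 Rgs5 UMIs in recipient pericytes, 62 lay in those 15 cells. Tagln stood at 3455 CPM in the donor and 4451 CPM in the recipient cells, Eln at 1545 and 1467 CPM, and Igfbp7 at 2032 and 2035 CPM. In pericytes without Acta2 these genes stood at 62.2, 11.0 and 490.1 CPM in the donor and 65.5, 25.8 and 394 CPM in the recipient library. Pericyte genes differed among themselves in these cells. Cox4i2 was lower, at 1789 CPM in donor and 2230.5 CPM in recipient cells against 4528 and 4388 CPM. Pdgfrb stood at 1463 CPM in donor and 1321 CPM in recipient cells, against 2030 and 1991 CPM without Acta2. Notch3 stood at 610 CPM in donor and 1291 CPM in recipient cells, against 640 and 735 CPM without Acta2. The 7 smooth muscle markers together stood at 1626 CPM in donor and 878 CPM in recipient pericytes, with single cells at up to 23677 and 18000 CPM. Of these Pln alone had 0 UMIs in the pericytes of both libraries, and 1 donor and 7 recipient pericytes had 3 or more of the 5 smooth muscle class genes. The 5 cells of the recipient smooth muscle class held 29146 UMIs. Of these 293 were of Acta2, 197 of Tagln, 61 of Eln, 11 of Rgs5 and 3 of Spp1. The 15 recipient pericytes held 570, 455, 150, 62 and 284 of 102221 UMIs. The part of smooth muscle RNA in the levels of these cells was not tested. Whether they were pericytes or smooth muscle cells was not tested either.

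The same pericytes showed this split after thinning. Of cells with an Acta2 UMI, 5 of 7 donor and 17 of 29 recipient pericytes had no Spp1 UMI, against 0 of 49 donor and 9 of 514 recipient pericytes without Acta2. In the cells without Acta2 the median was 43 Spp1 UMIs of 2000 in donor and 44 in recipient pericytes. Of endothelial cells thinned alike, 0.220% in the donor and 0.908% in the recipient library had an Acta2 UMI, and 2.09% and 13.0% a Spp1 UMI. Cells that met the pericyte rule and were low in Spp1 and high in Acta2 were thus found in both libraries.

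**Figure D3:**
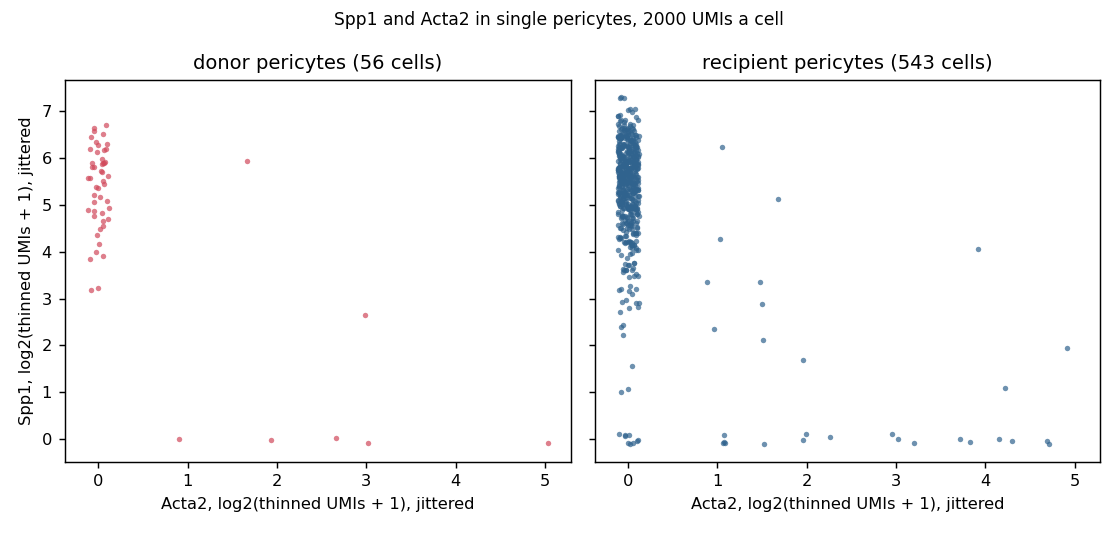
Spp1 against Acta2 UMIs per pericyte after thinning to 2000 UMIs, with 56 donor cells in red and 543 recipient cells in blue, jittered so that cells at the same count can be seen. Most cells lie along the Spp1 axis at 0 Acta2 UMIs, and 5 of 7 donor and 17 of 29 recipient cells with an Acta2 UMI lie at 0 Spp1 UMIs, with the highest at 64 in donor and 69 in recipient cells.

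Few genes were called between donor and recipient pericytes. Of 9997 genes compared, 80 (0.80%) were called higher and 81 (0.810%) lower in donor pericytes, and the median log2 ratio over all genes was -0.01. Endothelial cells of the same libraries, with many more cells and UMIs, had 178 of 13820 genes called higher (1.29%) and 656 lower (4.75%). The counts are not matched for depth, a gene not called in 61 donor cells is not shown to be equal, and the difference between the cell types was not tested. None of the 17 pericyte genes outside the rule that could be compared was called, with log2 ratios of -0.83 to 0.63. Of 15 genes that were 4-fold apart between donor and recipient endothelium and present in pericytes, 7 were called in pericytes, beside 1.61% of all genes. All 7 (Gsn, Mgp, Apoe, Cygb, Sftpa1, Ager and Scgb1a1) were lower in donor pericytes, as they were in donor endothelium. Among the 8 not called, Sox11, a transcription factor gene, stood at 137 CPM in donor and 136 CPM in recipient pericytes, but at 134 CPM in donor and 6.91 CPM in recipient endothelium.

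**Figure D4:**
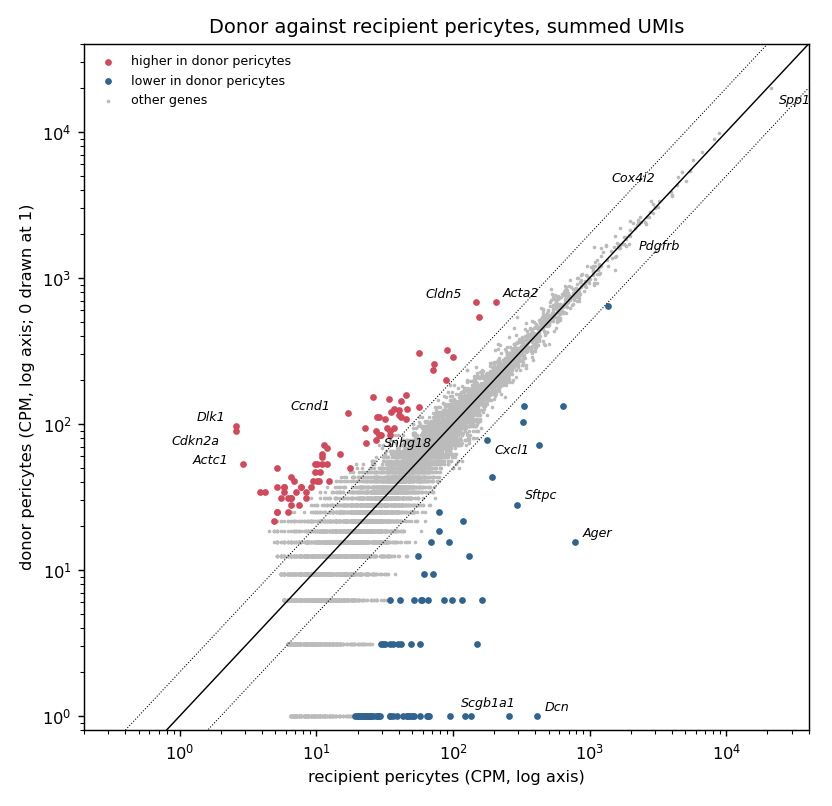
Level of each compared gene in donor pericytes (vertical) against recipient pericytes (horizontal), both as CPM on log axes, with genes at 0 in donor pericytes drawn at 1 and dotted lines at 2-fold. The pericyte genes lie on the diagonal, the genes above the lines include Acta2, Cdkn2a and Dlk1, and those below include Ager and Scgb1a1.

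Most of the called genes were ones that another cell class of the same library held at far higher levels. Of the 80 higher genes, 51 stood in donor pericytes under 20% of their level in donor endothelium. Of the 81 lower genes, 72 stood in recipient pericytes under 20% of their level in another recipient class. Genes of the endothelial class had UMIs in pericytes of both libraries, and more in donor pericytes. At least 3 of Cldn5, Cdh5, Pecam1, Calcrl and Egfl7 had a UMI in 18 of 61 donor pericytes, 29.5% (18.5% to 42.6%), against 21 of 552 recipient pericytes, 3.80% (2.37% to 5.76%). All 12 endothelial markers together reached 2492 CPM in donor and 1037 CPM in recipient pericytes, with single cells at 0 to 34063 CPM (median 1173) and 0 to 19982 CPM (median 695), and no marker at 0 in either. Of the 11 compared, 8 were called higher in donor pericytes, beside 0.80% of all genes. Markers of AT1 cells ran the other way, at 258 CPM in donor and 2240 CPM in recipient pericytes. All 8 were at 0 in 42 of 61 donor and 246 of 552 recipient pericytes. Of the 8 markers 6 were called lower in donor pericytes, beside 0.810% of all genes. All 6 airway markers had 0 UMIs in donor pericytes, against 140 CPM in recipient pericytes. The 10 leukocyte markers summed to 9.31 CPM in donor and 6.48 CPM in recipient pericytes, with Ptprc, which encodes CD45, at 0 in both. Without cells that held 3 of 5 genes of another class, 28 genes were called higher and 13 lower in donor pericytes, counts chosen after the data had been seen, of which 16 and 9 were among the 80 and 81. With all barcodes in both libraries left out, 14 genes were called lower and 121 higher. Whether these genes came from other cells in the same droplet or from free RNA was not tested.

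**Figure D5:**
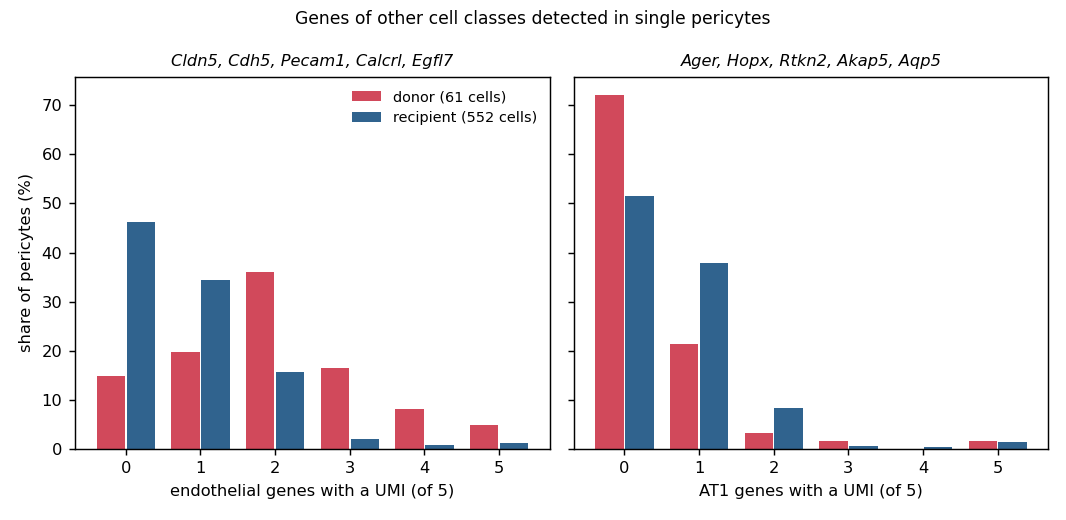
Share (%) of donor (red) and recipient (blue) pericytes with a UMI of 0 to 5 of the 5 endothelial class genes and of the 5 AT1 class genes. With 3 or more endothelial genes stand 18 of 61 donor and 21 of 552 recipient pericytes, and with 3 or more AT1 genes 2 and 13.

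Few genes were called between the libraries, stood at 50 CPM or more, and reached at least 20% of their level in the other classes of 50 or more cells in the library where they were higher. In the donor library that was endothelium alone, so donor levels of the higher genes were not set against fibroblasts, myofibroblasts or epithelium. These numbered 14 higher and 2 lower in donor pericytes, and several rested on 1 cell. All 31 UMIs of Dlk1 in donor pericytes, an imprinted gene for a transmembrane protein, lay in 1 cell, and all 17 of Actc1, the cardiac actin gene, in 1 cell. Cdkn2a, which encodes the cell cycle inhibitors p16 and p19ARF, stood at 90.0 CPM in donor and 2.59 CPM in recipient pericytes, with UMIs in 7 and 8 cells and 58.6% of the donor UMIs in 1. In endothelium it stood at 358 CPM in the donor and 369 CPM in the recipient library. Acta2 stood at 679.6 CPM in donor and 205 CPM in recipient pericytes, a ratio of 3.32 (2.83 to 3.87), with 57.5% of the donor UMIs in 1 cell. Without the highest cell of each library its log2 ratio was 0.69, and with a mitochondrial limit of 5% it was 0.75, neither of them called. Snhg18, the host gene of a small nucleolar RNA, stood at 90.0 CPM in donor and 27.5 CPM in recipient pericytes, a ratio of 3.27 (2.07 to 5.04), with UMIs in 11 and 60 cells. Among the 10 named higher genes, Snhg18 alone was called both without the highest cell (log2 1.38) and without cells that met another class (log2 1.998). With cells thinned to 2000 UMIs it was no longer called. Snhg18 stood at 144 CPM in recipient alveolar fibroblasts, above both pericyte groups.

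The others of the 10 were Ccnd1 (118 CPM in donor and 17.2 CPM in recipient pericytes), Emp1 (93.1 and 22.7), Cd34 (112 and 28.8), Adgrl2 (83.8 and 29.1) and Aspn (112 and 41.4). Ccnd1, Emp1, Cd34 and Adgrl2 stood higher in donor endothelium than in donor pericytes, at 273, 426, 476 and 375 CPM. Aspn stood at 2238 CPM in the 149 recipient myofibroblasts, far above both pericyte groups. For these 5 genes the highest donor cell held from 42.1% of the UMIs, for Ccnd1, to 76.7%, for Emp1. On the lower side, Scgb1a1, the secretoglobin gene of airway club cells, had 0 UMIs in donor pericytes and 136 CPM in recipient pericytes. At the floor of 3 counts it was at least 14.6-fold lower in donor, and its exact interval began at 11.9-fold. It had a UMI in 227 of 552 recipient pericytes, and stood at 105 CPM in recipient endothelium and 111 CPM in recipient alveolar fibroblasts, but at 10.4 CPM in donor endothelium. Cxcl1, a neutrophil chemokine gene, stood at 77.6 CPM in donor and 177 CPM in recipient pericytes, a ratio of recipient over donor of 2.29 (1.53 to 3.57), with UMIs in 12 and 139 cells. Cxcl1 was still called lower in donor pericytes without the highest cell (log2 -1.33), but not without cells that met another class. It stood at 348 CPM in recipient adventitial fibroblasts, above both pericyte groups.

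Stress, contractile and immune gene lists were read in the same way. Of 22 immediate early and dissociation response genes 0 were called between donor and recipient pericytes, near the 1.61% of all genes, with a median log2 ratio of 0.02. Fos stood at 3702 CPM in donor and 4035 CPM in recipient pericytes and Jun at 2765 and 2929 CPM. The heat shock genes Hspa1a and Hspa1b, near-identical copies whose counts cannot be told apart with certainty, stood at 1406 and 652 CPM in donor and at 1547 and 632 CPM in recipient pericytes. Of 14 contractile genes 2 were called higher in donor pericytes, Acta2 and Actg2, beside 0.80% of all genes, and the list median was 0.52. The 11 UMIs of Actg2 in donor pericytes lay in 1 cell. Myh11, the smooth muscle myosin gene, stood at 199 CPM in donor and 128 CPM in recipient pericytes and was not called.

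Of 25 interferon response genes 0 were called, near the 1.61% of all genes, with a median log2 ratio of 0.35 beside -0.01 for all genes. Isg15, an interferon-induced ubiquitin-like gene, stood at 140 CPM in donor and 84.5 CPM in recipient pericytes, a ratio of 1.65 (1.18 to 2.27). Of 10 class I antigen presentation genes 2 were called higher in donor pericytes, beside 0.80% of all genes, and the median was 0.60. The 2 were H2-Q6 and H2-Q7, near-identical copies whose reads can be shared. H2-K1, a class I heavy chain gene, stood at 844 CPM in donor and 521 CPM in recipient pericytes, and B2m, the light chain gene, at 965 and 717 CPM. Against recipient endothelium 10 of 11 class I genes were called lower in recipient pericytes, beside 15.1% of all genes, with H2-K1 at 4208 CPM there. Cd74, the class II invariant chain gene, was called higher, at 90.0 CPM in donor and 34.3 CPM in recipient pericytes, and stood at 1687 CPM in donor and 704 CPM in recipient endothelium. Endothelial RNA was higher in donor pericytes, as given above, and its part in these lists was not tested. Of 17 genes of a p53 list, which held Trp53 and Cdkn2a beside p53 targets, 2 were called higher, beside 0.80% of all genes. They were Gdf15 and Cdkn2a, and for Cdkn2a 58.6% of the donor UMIs lay in 1 cell. Gdf15, a stress-induced cytokine gene, stood at 199 CPM in donor and 89.4 CPM in recipient pericytes, a ratio of 2.22 (1.67 to 2.93), with UMIs in 20 and 120 cells. Gdf15 was no longer called without the highest cell of each library, nor without cells that met another class.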

How the data were processed

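Gene counts were measured by 10x Genomics droplet sequencing, 1 donor and 1 recipient library, each from 3 pooled mice. The authors deposited whole-number UMI counts for 32285 genes per library. Cell Ranger 4.0.0 and the build mm10 (GRCm38) are named per the submitters' processing notes, whereas the labels' protocol gives Cell Ranger 3.0.1. 38 symbols have more than 1 identifier, and no tdTomato feature is among the genes.

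Barcodes with at least 1000 UMIs and under 7% mitochondrial UMIs were kept. This removed 845 and 458 of 6319 donor barcodes and 113 and 328 of 3784 recipient barcodes. Of a barcode in both libraries the smaller copy was left out (736 donor, 80 recipient). Median depth of the cells kept was 6196 UMIs in the donor and 6408.5 in the recipient library. Doublets were kept in the main values, and an alternative removed the highest Scrublet scores (250 donor and 101 recipient cells), a number set by the expected rates of 5.055% and 3.027% since Scrublet's own threshold called 151 and 8. Other classes needed 3 of 5 marker genes and no second class, and pericytes were not counted in them. Counts were summed per library and class and given as CPM. Ratios have exact conditional 95% intervals and shares exact Clopper-Pearson intervals, for counting error only. A ratio against 0 counts used 3 counts over the group as a floor.

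With 1 library per group there is no test and no p-value. Genes named are the 25 with the largest fold over the highest of 3 classes at 50 CPM or more, up to 10 each way between donor and recipient pericytes, list members called or leading their list, and the 20 most variable genes. Mitochondrial, ribosomal, haemoglobin, sex-linked and unnamed genes were left out of the first 2 groups. The members and lists were chosen with earlier results of these data known. Alternatives changed the filters, doublets, shared barcodes, UMI minimum, normalization and thinning. Analysis used python 3.11.15, numpy 2.4.6, scipy 1.17.1, pandas 2.3.3, scanpy 1.11.5 and matplotlib 3.10.9. Promoter sequences are from RefSeq (GRCm38.p6).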

Additional observations from a re-analysis of the deposited data

Results flagged for a closer look

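In 4 genes the difference between the libraries ran one way in pericytes and the other way in endothelial cells, which singled them out. The difference between the cell types was not tested. Acta2 had a ratio of donor over recipient of 3.32 in pericytes (679.6 and 205 CPM) and of 0.276 in endothelium (1.29 and 4.68 CPM). Aspn had a ratio of 2.70 in pericytes (112 and 41.4 CPM) and of 0.0270 in endothelium (0.0601 and 2.22 CPM). Gm4841 had a ratio of 4.79 in pericytes (37.2 and 7.77 CPM), with UMIs in 2 donor and 12 recipient cells, and of 0.0751 in endothelium (2.16 and 28.8 CPM). Sec14l3 had a ratio of 0.0949 in pericytes (6.21 and 65.4 CPM), with UMIs in 2 donor and 18 recipient cells, and of 2.16 in endothelium (14.2 and 6.56 CPM). Several of these ratios rested on few counts. The highest donor pericyte held 57.5% of the donor UMIs for Acta2, 58.3% for Aspn and 66.7% for Gm4841. Endothelial cells held 43 donor and 40 recipient UMIs of Acta2, and 2 and 19 of Aspn.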

How the results depend on the processing

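The donor share was within its interval in 6 of 8 alternatives (1.08% to 1.37%), and was 0.870% without cells holding 3 of 5 endothelial genes and 0.789% without cells of any other class. The recipient share was within it in 6 of 8 (15.4% to 16.7%), and was 18.6% with all shared barcodes left out and 15.1% without cells of another class. The 80 genes higher in donor pericytes became 121 with shared barcodes left out, 49 with the highest Scrublet scores removed, 46 without cells holding endothelial genes, 34 at 100 or more UMIs, 132 at 1 or more, 35 after thinning, 28 without cells of another class and 38 without the highest cell of each gene. The 81 lower genes became 14, 47 and 40 in the first 3 of these, 10 after thinning and 13 without cells of another class. The 101 genes over all 3 classes became 835 without the smooth muscle class and ranged from 70 to 141 in the other 13 alternatives. Directions turned for Ager over the highest class (-0.31 with shared barcodes left out and -0.61 without cells of another class, log2), for Cd34 (-0.071 with Scrublet and -0.73 without endothelial cells), for Emp1 (-0.39 without endothelial cells) and for Adgrl2 (-0.11 without the highest cell); these last 3 genes are given as donor over recipient. Leaving out other-class cells, the highest cell or the smooth muscle class was chosen after seeing the data. The cause was not tested. No paired analysis was possible because each group is 1 library, and for the same reason no replicate could be left out. With 322230 UMIs in donor pericytes, genes under 9.31 CPM there could not be told from absent.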

Other observations

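Xist, the RNA of the inactive X chromosome, was looked at outside the naming rule and chosen after its values were seen. It had 0 UMIs in the 61 donor pericytes, against 108 CPM in donor endothelium, where 506 of 4625 cells (10.9%, 10.1% to 11.9%) had a UMI. At the donor endothelial level 34.7 UMIs would have been counted in donor pericytes, in 6.67 cells at that share. Genes of the Y chromosome summed to 211 CPM in donor pericytes and 213 CPM in donor endothelium. Recipient pericytes held 0.648 CPM of Xist and 224 CPM of the Y-linked genes. The pericytes of single mice could not be told apart.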
